A study of Mus musculus with 6 samples.

Results

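Snx31 and the 5 uroplakin genes Upk1a, Upk1b, Upk2, Upk3a and Upk3b were followed through the transcriptome of the mouse handpad, the paddle-shaped end of the embryonic forelimb from which the digits separate. They are 6 of 34989 genes in the tables. They were taken by name, but the group was chosen by the knockout against wild-type log2 fold change of Snx31 in these same libraries, among the lowest of all genes, so its difference between the genotypes is given as a description, and its call in the fit over all genes supports nothing. The samples were handpads of C57BL/6 embryos at E14.5 (days of embryonic development), 3 wild-type (WT) and 3 Grhl3 knockout (Grhl3-/-, labelled Grhl3KO). The labels used here do not state which part of Grhl3 was deleted, whether the loss was in every tissue, or whether a sample was 1 embryo or a pool, so the spread between samples may be technical in part. The libraries held 38052692 to 56037639 estimated counts. The forelimb gene Tbx5 lay between 127 and 143 CPM (counts scaled to library size) in wild-type and between 104 and 123 CPM in knockout libraries. The mesenchymal gene Prrx1 lay between 490 and 542 CPM and between 389 and 487 CPM. Markers of the labelled tissue were thus present, and both were lower in every knockout library, as were 6.16% of all tested genes. Of 8 genes listed for handpad mesenchyme, 0 had a positive log2 fold change and 0 passed edgeR at an adjusted p under 0.05. The deleted gene, Grhl3, measured 14.3, 45.7 and 18.5 CPM in wild-type replicates 1, 2 and 3 and 3.11, 2.86 and 2.95 CPM in knockout replicates 1, 2 and 3, which goes with the labels (log2 fold change -3.14, SE 0.41, edgeR adjusted p = 0.0221). That call was lost with limma-voom (adjusted p = 0.0743) and with wild-type replicate 3 (0.0806) or knockout replicate 1 (0.162), 2 (0.0759) or 3 (0.121) dropped.

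Uroplakins are the membrane proteins of the bladder lining, the urothelium. In the superficial umbrella cells the tetraspanins Upk1a and Upk1b join with the single-pass proteins Upk2 and Upk3a, or Upk3b, and leave the endoplasmic reticulum as heterodimers, which then assemble into the rigid plaques of the apical membrane. Snx31 is a sorting nexin, related to Snx17, with a lipid-binding PX domain and a FERM-like domain. It was described on the multivesicular bodies of umbrella cells that carry uroplakins to degradation, and it also binds integrin beta tails. Grhl3, the deleted gene, is a transcription factor of surface epithelia with known roles in skin and in the differentiation of umbrella cells. In embryonic skin the outermost cells are the periderm, a flat, transient layer.

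Snx31 was low in all knockout libraries and highest in wild-type replicate 2. It measured 2.46, 6.24 and 2.81 CPM in wild-type replicates 1, 2 and 3, and 0.406, 0.358 and 0.437 CPM in knockout replicates 1, 2 and 3. In reads this is 93, 311 and 111 estimated counts against 20, 17 and 24. The groups did not overlap, and the lowest wild-type library lay well above the highest knockout library. The means were 3.83 ± 2.09 and 0.400 ± 0.0396 CPM (SD, n = 3 per group), and the fitted log2 fold change was -3.25 (SE 0.41), that is 9.54-fold lower in the knockout. Snx31 is encoded on chromosome 15, bases 36504062 to 36555573, minus strand (ENSMUSG00000013611.14, mm10). No other gene of the tables overlaps its span or that of a uroplakin gene. In bulk tissue, fewer cells that make a transcript cannot be told apart from less of it per cell.

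**Figure D1:**
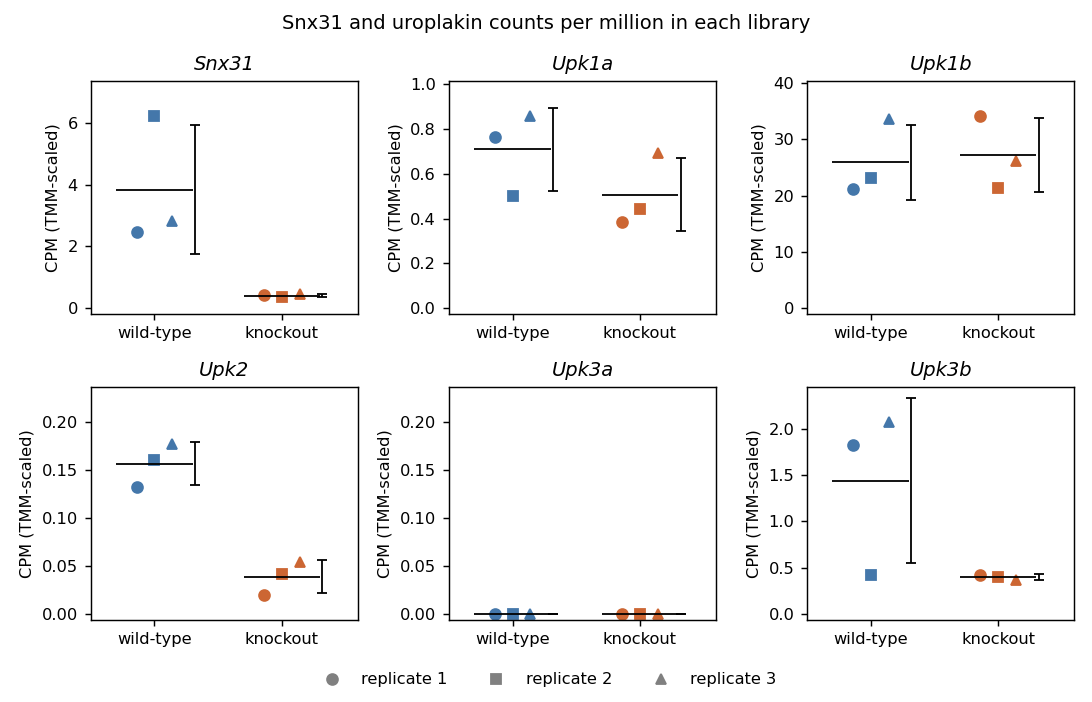
CPM (vertical axes from near 0, a separate scale for each gene), of Snx31 and the 5 uroplakins in the wild-type (blue) and knockout (orange) libraries. Points are libraries, the horizontal line is the group mean and the bar beside it is 1 SD. Snx31 sits at 2.46 to 6.24 CPM in wild-type and at 0.358 to 0.437 CPM in knockout libraries, while the Upk1b points overlap and those of Upk3a all lie at 0.

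Of the 6 members, 4 passed the filter on low counts, namely Snx31, Upk1a, Upk1b and Upk3b, and 1 of these 4, Snx31, passed a false discovery rate (FDR) of 0.05 in the edgeR quasi-likelihood fit. Over all 16938 genes tested the share called was 0.431% in either direction and 0.0827% lower in the knockout. Since the group was formed around that call, nothing is read from the count. No member was called once wild-type replicate 3 or any single knockout library was dropped, nor with limma-voom. Dropping wild-type replicate 2 gave 2 called members, Snx31 and Upk3b. Groups that did not overlap with the knockout lower were found for 6.16% of tested genes and, among the 4 tested members, for Snx31. The same with the knockout higher held for 6.77% of tested genes and for 0 members.

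Snx31 has an alternative splice acceptor that separates its main annotated transcripts, and the deposited tables divide its counts between them. Both transcripts have 14 exons and the same stop codon. The last exon of ENSMUST00000161202.7 starts 3 bases earlier in the coding sequence than that of ENSMUST00000013755.11, and their ends differ in the untranslated part. The 24 coding bases on each side of the junction are shown from GENCODE M21, 5′ to 3′, with the 3 added bases in capitals.
ENSMUST00000013755.11: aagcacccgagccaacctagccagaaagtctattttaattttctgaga
ENSMUST00000161202.7: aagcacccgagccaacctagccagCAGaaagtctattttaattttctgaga
In the wild-type libraries the transcript with the added bases held 71.9%, 58.9% and 67.6% of the Snx31 counts. It held 100% in knockout replicates 1 and 2 and 46.1% in knockout replicate 3. The knockout shares rest on 17 to 24 counts divided by the authors' software, and their spread (82 ± 31.1%, SD, n = 3) covers the wild-type mean of 66.2 ± 6.62% (SD, n = 3). Both transcripts had fewer counts in every knockout library than in any wild-type library.

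Snx31 and Grhl3 had the same order among the wild-type libraries, and both were low in the knockout libraries. On the deposited TPM scale, which corrects for transcript length, Grhl3 stood at 5.41, 22.0 and 8.81 TPM in the wild-type libraries and at 1.35, 1.21 and 1.19 TPM in the knockout libraries. Snx31 stood at 1.09, 3.47 and 1.56 TPM and at 0.217, 0.187 and 0.200 TPM in the same order. Snx31 was thus 15.8% to 20.2% of Grhl3 in wild-type and 15.4% to 16.7% in knockout libraries. Grhl3 is the deleted gene, and Snx31 was chosen for its own difference between the genotypes. The like share in both genotypes is therefore a description, and whether Snx31 follows the level of Grhl3 was not tested. Wild-type replicate 2 was highest for both genes. Within the knockout the libraries lay close together for both, but replicate 3 was lowest for Grhl3 and replicate 2 for Snx31. Because the libraries fall into separate clusters by genotype, with 3 in each, no correlation was computed.

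**Figure D2:**
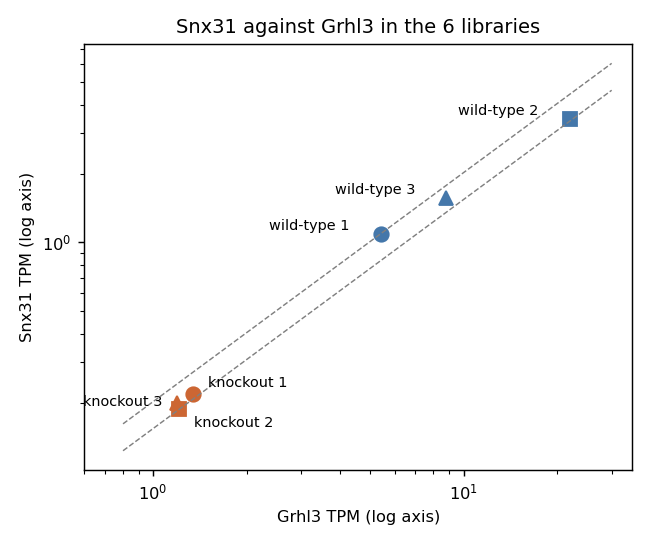
Snx31 TPM (vertical log axis) against Grhl3 TPM (horizontal log axis), 1 point per library, wild-type blue and knockout orange, with the replicate number beside each point. Dashed lines mark Snx31 at 15.4% and 20.2% of Grhl3, the lowest and highest share found, and all 6 libraries lie on or between them.

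Of the genes compared with Snx31 for their pattern over the 6 libraries, Grhl3 was the closest. Likeness was the root mean square (RMS) difference in log2 CPM after each gene's own mean was subtracted, so a small value means that 2 genes moved by like amounts in the same libraries. Grhl3 differed from Snx31 by 0.12, and the next gene, Ceacam19, a member of the carcinoembryonic antigen family, by 0.45. Then came Ano7, of the anoctamin family, at 0.53, Lipm, an epidermal lipase, at 0.61 and Krt4, a periderm keratin, at 0.69. Ceacam19 measured 2.54, 5.46 and 2.86 CPM in wild-type and 0.893, 0.569 and 0.764 CPM in knockout libraries. Ano7 measured 1.45, 2.87 and 2.02 CPM in wild-type and 0.426, 0.505 and 0.455 CPM in knockout libraries. All 5 genes were lower in every knockout library than in any wild-type library and highest in wild-type replicate 2. This measure includes the difference between the genotypes, for which Snx31 was chosen and which in Grhl3 goes with its deletion. The first rank of Grhl3 is therefore a description. With the mean of each group subtracted in its place, a choice made after these values were seen, Grhl3 ranked 2, Ceacam19 14, Ano7 107, Krt4 163 and Lipm 7453 among 13747 genes. Lipm was thus near Snx31 through the difference between the genotypes and not within the groups.

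**Figure D3:**
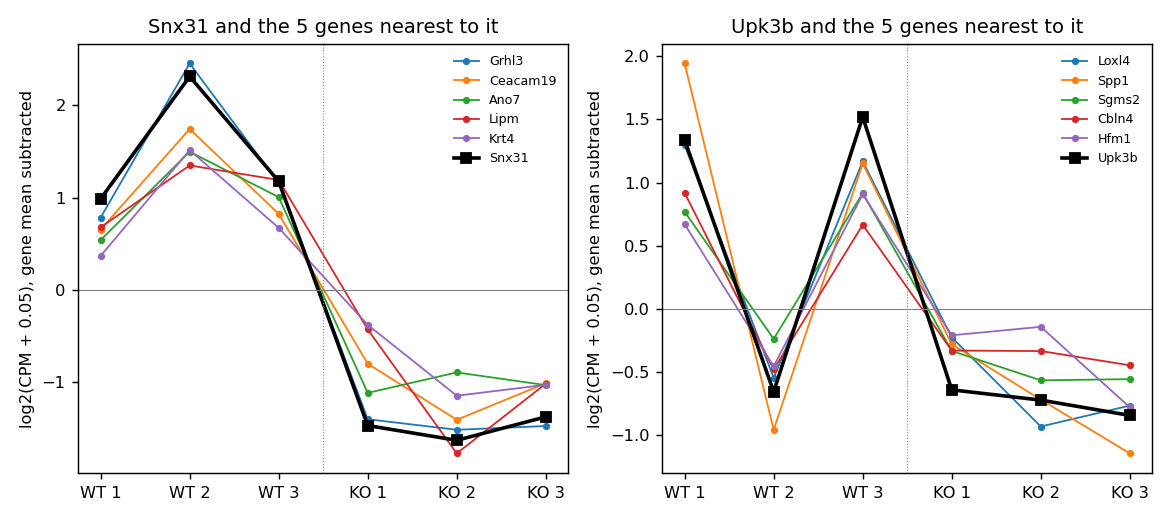
log2(CPM + 0.05) with each gene's mean over the 6 libraries subtracted (vertical axis) for Snx31 (left, black) and Upk3b (right, black) and the 5 genes nearest to each in that measure, by library (horizontal axis). Lines only join the values of a gene. The Grhl3 line runs within an RMS difference of 0.12 of Snx31, and Upk3b and its nearest genes are high in wild-type replicates 1 and 3 only.

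The libraries also differed in epithelial genes, Y-linked expression and RNA composition. Mean transcript length, weighted by counts, was 3148, 3625 and 3601 bases in wild-type and 3480, 3385 and 3347 bases in knockout libraries, and ribosomal protein genes took 9.72%, 6.18% and 6.86% against 7.86%, 8.28% and 8.50% of counts. Wild-type replicate 2, with the most Snx31, had the longest mean length and the lowest ribosomal share, while wild-type replicate 1 had the shortest mean length and the highest ribosomal share of the 6 libraries. Without wild-type replicate 1 the Snx31 log2 fold change was -3.49, and with a term for transcript length it was -3.09. The summed level of the 18 pan-epithelial genes, all of them tested and none at 0, was 2013, 3442 and 2151 CPM in wild-type and 4879, 3542 and 4661 CPM in knockout libraries. Wild-type replicate 2 thus had the highest sum of its group, and each knockout sum lay above every wild-type sum. Krt5, a large part of the sum, measured 638, 1068 and 578 CPM in wild-type and 1623, 1208 and 1596 CPM in knockout libraries. Of the 18 genes, 16 had a positive log2 fold change, and Esrp1 (-0.001) and Esrp2 (-0.34) did not. Krt5, Esrp1 and Esrp2 were named after their values were seen. Per 1000 CPM of the 18 summed genes, Snx31 stood at 1.22, 1.81 and 1.31 CPM in wild-type and at 0.0832, 0.101 and 0.0937 CPM in knockout libraries. The sum it was divided by was itself higher in the knockout libraries, so nothing is read from that ratio. The part of epithelial content, RNA composition and Y-linked expression in the Snx31 values was not tested. With libraries scaled on these genes, the Snx31 log2 fold change was -3.77, where the median of all genes was -0.65. The 4 Y-linked genes summed to 283 and 327 CPM in wild-type replicates 2 and 3 and to 3.43 to 5.57 CPM in wild-type replicate 1 and the knockout libraries. Among the 4 libraries without Y-linked expression, Snx31 was 2.46 CPM in wild-type replicate 1, the only wild-type one, and at most 0.437 CPM in the knockout libraries. No knockout library had Y-linked expression, so it cannot be fully told apart from genotype, and nothing is read from these values. With a term for Y-linked expression the log2 fold change was -2.61.

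Upk1b, a tetraspanin uroplakin that is also known outside the bladder, was the most abundant uroplakin in the handpad and overlapped between the genotypes. It measured 21.1, 23.2 and 33.6 CPM in wild-type and 34.2, 21.3 and 26.1 CPM in knockout libraries. On the TPM scale its level was 20.6 ± 7.14 in wild-type and 20.2 ± 5.3 in knockout libraries (SD, n = 3 per group). Its log2 fold change was 0.07 (SE 0.22), smaller than the spread between replicates, and under pan-epithelial scaling it was -0.60, near the -0.65 of all genes under that scaling. It was also negative with wild-type replicate 1 (-0.06), wild-type replicate 2 (-0.01) or knockout replicate 1 (-0.13) dropped. Upk1b made up 91.0% to 97.9% of all uroplakin TPM in a library. In each library its TPM lay above that of 66.7% to 76.4% of the genes listed above 0. Upk1b lies on chromosome 16, bases 38773184 to 38800328, minus strand (ENSMUSG00000049436.5, mm10).

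Upk1a, the other tetraspanin uroplakin and the partner of Upk2 in umbrella cells, was far lower. It measured 0.766, 0.502 and 0.860 CPM in wild-type and 0.386, 0.442 and 0.692 CPM in knockout libraries, or 19 to 38 estimated counts. The groups overlapped, and the log2 fold change was -0.47 (SE 0.35). In a library the Upk1b TPM was 20.6 to 65.8 times the Upk1a TPM. Upk1a lies on chromosome 7, bases 30603092 to 30612847, minus strand (ENSMUSG00000006313.5, mm10).

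Upk2, the single-pass partner of Upk1a, was near the limit of detection and did not pass the filter. It had 5, 8 and 7 counts in the wild-type and 1, 2 and 3 counts in the knockout libraries, so the few counts of the groups did not overlap. Of the tested genes, to which Upk2 does not belong, 6.16% were separated with the knockout lower. Nothing is read from the separation at so few counts. At a minimum of 3 counts it was detected in 3 of 3 wild-type libraries and in 1 of 3 knockout libraries, and at a minimum of 10 counts in 0 of both. Pooled by genotype, 20 counts stood against 6, a knockout to wild-type ratio of 0.247 per library total (exact 95% interval 0.081 to 0.637). That interval treats the pooled counts as independent and leaves out the spread between libraries, so it is no test of the genotypes. It is for counting error only, and PCR copies were not told apart by molecular identifiers. Upk2 lies on chromosome 9, bases 44452715 to 44454976, minus strand (ENSMUSG00000041523.3, mm10).

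Upk3a, a partner of Upk1b in the urothelial plaque, was not detected. All 6 libraries list it at 0 counts, which allows up to 0.0237 CPM over the wild-type libraries together and 0.0195 CPM over the knockout libraries together (3 counts per group). Its chromosome 15 locus, bases 85017141 to 85022547, plus strand (ENSMUSG00000022435.6, mm10), is on the same chromosome as Snx31. The handpad thus had RNA of Upk1b at a moderate level and no counts for Upk3a. Upk3b, which can stand in place of Upk3a, had counts in all 6 libraries.

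Upk3b, the close relative of Upk3a and a known marker of mesothelium, was high in part of the wild-type libraries. It measured 1.82, 0.421 and 2.07 CPM in wild-type and 0.426, 0.400 and 0.364 CPM in knockout libraries. Wild-type replicate 2 lay inside the knockout range, so the groups overlapped, with means of 1.44 ± 0.891 and 0.397 ± 0.0313 CPM (SD, n = 3 per group). The log2 fold change was -1.84 (SE 0.54), and it came to -2.29 with wild-type replicate 2 dropped and to -1.47 with replicate 3 of that group dropped. This is not the order of the libraries in Snx31, which was highest in wild-type replicate 2. The genes nearest to Upk3b were Loxl4 and Spp1, a matrix crosslinking enzyme and osteopontin, at RMS differences of 0.24 and 0.37, followed by Sgms2, Cbln4 and Hfm1. Spp1 measured 27.5, 3.65 and 15.9 CPM in wild-type and 5.87, 4.32 and 3.20 CPM in knockout libraries. Upk3b lies on chromosome 5, bases 136038496 to 136046487, plus strand (ENSMUSG00000042985.7, mm10). The authors' deposited table, which holds 941 genes, lists Snx31 at a log2 fold change of -3.25 and Upk3b at -1.85, and it lists no other member. The highest unadjusted p in it is 0.0506 (the authors' edgeR likelihood ratio test). Absence from it therefore does not tell an unchanged member from an undetected one.

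Among wild-type libraries the order of levels per length was Upk1b, Snx31, Upk1a, Upk3b, Upk2 and Upk3a. Upk1a and Upk3b overlapped in TPM, as did Upk3b and Upk2, while the other neighbours in that order did not. In the knockout libraries Upk1a stood above Snx31, with 0.397 to 0.662 TPM against 0.187 to 0.217 TPM. No other neighbours changed places.

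Since Grhl3 binds DNA, the promoters of the members with an entry in the RefSeq promoter table were searched for its consensus. They are Upk1a, Upk3a and Upk3b (3 of 6 members; GRCm38.p6, the build of mm10; 250 bases before to 50 after the start). Snx31, Upk1b and Upk2 had no entry, so their promoters were not searched. The 3 windows are shown 5′ to 3′ on the gene's strand, with CCAAT in either orientation in capitals.
Upk1a, chr7:30612685-30612984, minus strand: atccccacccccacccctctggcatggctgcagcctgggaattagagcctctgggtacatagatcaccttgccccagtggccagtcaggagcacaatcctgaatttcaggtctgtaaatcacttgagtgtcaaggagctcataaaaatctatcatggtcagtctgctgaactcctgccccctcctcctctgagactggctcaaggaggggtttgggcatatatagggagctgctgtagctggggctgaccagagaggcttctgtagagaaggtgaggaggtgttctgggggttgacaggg
Upk3a, chr15:85016891-85017190, plus strand: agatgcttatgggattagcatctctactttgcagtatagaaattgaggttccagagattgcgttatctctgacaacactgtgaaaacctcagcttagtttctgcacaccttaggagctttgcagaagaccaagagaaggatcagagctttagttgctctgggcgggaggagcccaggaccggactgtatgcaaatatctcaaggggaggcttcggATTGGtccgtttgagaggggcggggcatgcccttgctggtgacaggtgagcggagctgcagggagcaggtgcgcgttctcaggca
Upk3b, chr5:136038246-136038545, plus strand: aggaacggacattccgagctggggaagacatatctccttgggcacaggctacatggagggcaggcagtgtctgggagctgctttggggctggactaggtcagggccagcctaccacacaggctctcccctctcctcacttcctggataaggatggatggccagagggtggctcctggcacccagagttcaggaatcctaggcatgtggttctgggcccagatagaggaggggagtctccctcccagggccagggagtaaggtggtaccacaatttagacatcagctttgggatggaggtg
The sequence AACCGGTT, the palindromic grainyhead-like consensus, was in none of the 3 windows, and neither was its looser form AACNNGTT, which includes the first. Of all 32851 windows of the table, 0.146% hold the first and 4.2% the second. TATAAA was in none of the 3 windows on either strand, against 13.6% of all windows. CCAAT was in the Upk3a window, on the strand opposite to the gene (ATTGG as printed), and is in 37.4% of all windows. These are matches of letters and say nothing of binding.

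None of the genes beside Snx31 passed the test. Of the 3 protein-coding genes whose start lies within 250 kb of that of Snx31, all were tested and 0 were called (edgeR, 0 at an unadjusted p under 0.05). Ankrd46, at 58.8 kb, had a log2 fold change of -0.04 (SE 0.08). Pabpc1, the main cytoplasmic poly(A)-binding protein, at 54.1 kb on the other side, had 0.09 (SE 0.12), and Ywhaz, a 14-3-3 protein, had 0.05 (SE 0.13). The related Grhl2 gene starts 677 kb from Snx31 and had a fitted log2 difference of 0.36 (SE 0.19), with an edgeR adjusted p of 0.785. Of 13 tested neighbours of Upk3b, 0 were called (edgeR). One of them is Upk3bl, the uroplakin 3b-like gene 16 kb away, with 3.80, 2.01 and 4.33 CPM in wild-type and 4.40, 3.08 and 4.29 CPM in knockout libraries. Upk3bl was lowest in wild-type replicate 2 within its group, as Upk3b was, and its log2 fold change was 0.22 (SE 0.30), with an edgeR adjusted p of 0.977. Of 25 tested neighbours of Upk1a and 4 of Upk1b, 0 were called (edgeR). Beside the uroplakins an unadjusted edgeR p under 0.05 did occur, as in 7.22% of all tested genes. Beside Upk1a it was that of Igflr1 (log2 fold change -1.76), Arhgap33 (-0.42) and Sbsn (0.63). Tmem39a (-0.22) beside Upk1b and Hspb1 (0.49) beside Upk3b had one too. The lowest edgeR adjusted p among them was 0.384, that of Igflr1.

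**Figure D4:**
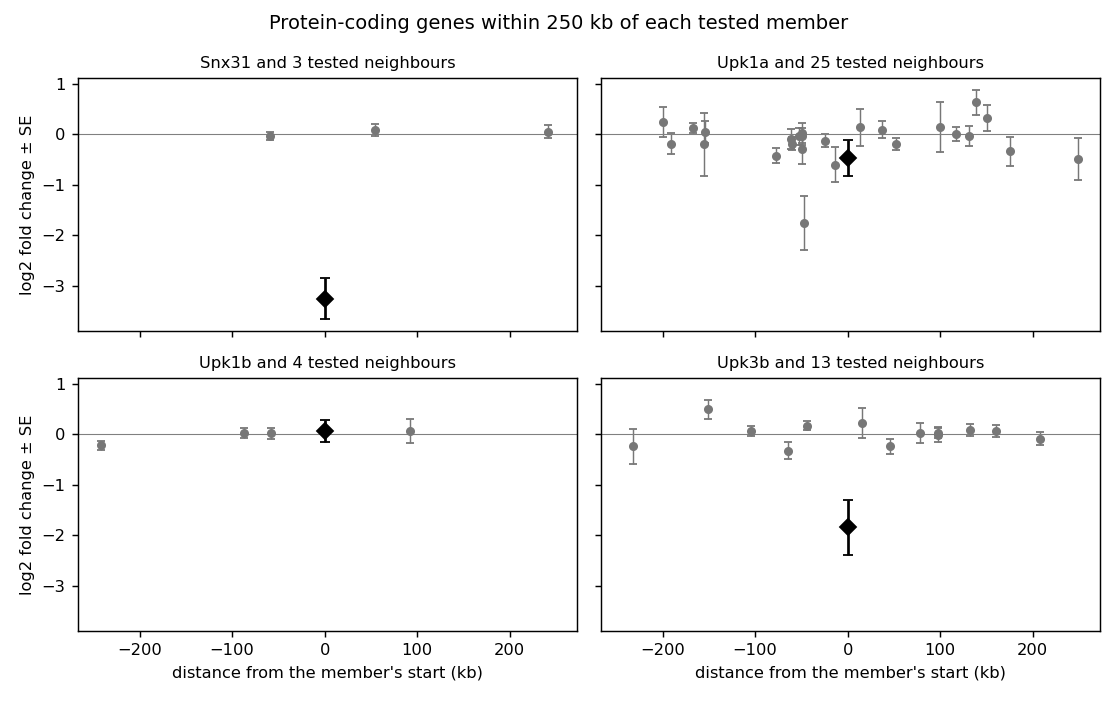
Log2 fold change, knockout minus wild-type, with its SE (vertical axes), of each tested member (black) and the tested protein-coding genes within 250 kb (grey), against the distance of their starts in kb (horizontal axes). The 3 neighbours of Snx31 lie between -0.04 and 0.09, and Snx31 at -3.25.

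Few genes in the wider families of the members passed a test. Of the 29 other sorting nexins, all tested, 0 were called with edgeR, DESeq2, the likelihood ratio test or limma-voom, and 0 had an unadjusted p under 0.05, where 7.22% of all tested genes had one. Their log2 fold changes ran from -0.36 for Snx32 to 0.21, with a median of -0.02 against -0.00449 for all genes. Of 26 tested tetraspanins, 0 were called by any of the 4 tests, with a median of 0.09. The lowest unadjusted p among them, the only value under 0.05, was that of Cd151, a partner of laminin-binding integrins that differed by 0.31 on the log2 scale (SE 0.09, edgeR adjusted p = 0.377). Among 45 entries for 44 genes of endosomal sorting (retromer, retriever, the COMMD complex and the ESCRT complexes), 0 were called by any of the 4 tests and the median was 0.03. Chmp4c, an ESCRT subunit, alone had an unadjusted p under 0.05. It measured 2.85, 6.04 and 6.73 CPM in wild-type and 12.6, 7.67 and 10.6 CPM in knockout libraries (adjusted p = 0.436, edgeR), and it passed with a term for transcript length (adjusted p = 0.0221) or for Y-linked expression (0.0435). Of 8 integrin beta chains, the receptors whose tails Snx31 binds, 0 were called with edgeR, 3 had an unadjusted p under 0.05, and DESeq2 and the likelihood ratio test each called 1, Itgb6 (edgeR log2 fold change 0.79, SE 0.18, adjusted p = 0.178).

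Genes of urothelial differentiation other than the members gave 1 call among 21 tested, and it was higher in the knockout. Krt7, a keratin of simple and transitional epithelium, rose from 20.6, 30.3 and 26.0 CPM to 97.5, 56.3 and 78.8 CPM (log2 fold change 1.59, SE 0.21, adjusted p = 0.0221, edgeR). The call was lost with wild-type replicate 3 dropped (adjusted p = 0.184), with either knockout replicate 1 (0.0943) or 3 (0.106) dropped, with effective length offsets (0.125) and with pan-epithelial scaling (0.0505). A term for the replicate number lost it as well. The median of the list was 0.06, and at an unadjusted p under 0.05 there were 6 higher genes and 1 lower, where 646 and 577 of all 16938 genes were, and 0.431% of all genes were called. Mal2 and Myo5b, which serve apical membrane traffic, stood 0.82 and 0.61 higher on the log2 scale without passing (edgeR adjusted p = 0.248 for Mal2 and 0.229 for Myo5b), and under pan-epithelial scaling the values were 0.19 and -0.04. Krt20, the keratin of umbrella cells, chosen after its values were seen, measured 0.343, 0.321 and 0.202 CPM in wild-type and 1.36, 0.442 and 1.33 CPM in knockout libraries (adjusted p = 0.269, edgeR). Krt7 and Krt20, which are also on the periderm list, were higher in every knockout library than in any wild-type library, the reverse of Snx31. That held for 6 of the 21 tested genes and for 6.77% of all tested genes. The opposite held for 1 of the 21, Gata3, and for 6.16% of all tested genes. Gata3, named after its values were seen, had a log2 fold change of -0.29 (edgeR adjusted p = 0.685).

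Since Upk3b and Upk1b mark mesothelium, genes of that lining were set beside them. All 7 were tested, none was at 0, and their summed level was 40.0, 54.8 and 44.4 CPM in wild-type and 79.3, 53.7 and 64.8 CPM in knockout libraries. Most of that sum was Krt19, a keratin of simple epithelia that is on the periderm list too, with 29.7, 44.4 and 32 CPM in wild-type and 65.8, 41.4 and 52.6 CPM in knockout libraries. Its log2 fold change was 0.59 (edgeR adjusted p = 0.47), and -0.018 under pan-epithelial scaling. Of the 7, 1 was called higher and 0 lower, with a median of -0.00137. The called gene was Muc16, a large membrane mucin also found on other wet epithelia, which rose from 0.0264, 0.0201 and 0.0506 CPM to 0.771, 0.484 and 0.601 CPM (adjusted p = 0.0146, edgeR). The wild-type values are at or below a few counts per library, so Muc16 passed the filter on low counts only through the knockout libraries and its call is no support for the list. It was not among the genes with at least 1 CPM in 3 libraries. The Muc16 call was lost with a Y-linked term (adjusted p = 0.0778). It was also lost with wild-type replicate 2 (0.0661) or 3 (0.0806) dropped, and with knockout replicate 1 (0.0902) or 3 (0.0673) dropped. Msln, mesothelin, measured 1.11, 0.221 and 1.95 CPM in wild-type and 3.80, 1.56 and 2.77 CPM in knockout libraries (adjusted p = 0.75, edgeR). In the wild-type libraries Msln was low where Upk3b was low, in replicate 2, but in the knockout libraries it was not. Wt1, a mesothelial transcription factor chosen after its values were seen, stayed between 0.406 and 0.674 CPM in all 6 libraries. The part of mesothelial cells in the Upk3b values was not tested.

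Most periderm genes were higher in the knockout libraries, where Snx31 was lower. Of 12 tested, 7 rose and 0 fell (edgeR), against 0.348% of all genes called higher. The list was written with earlier results of these libraries known, so its direction is no independent evidence. The 7 were the keratins Krt8, Krt17, Krt6a, Krt18, Krt13 and Krt7 and the claudin Cldn6. Krt8, of simple epithelium, went from 8.0, 6.96 and 8.70 CPM to 82.0, 48.3 and 57.8 CPM (adjusted p = 0.00237, edgeR). The list's summed level was 205, 335 and 225 CPM in wild-type and 1254, 657 and 976 CPM in knockout libraries, with a median log2 fold change of 1.72. Within the wild-type group both the periderm sum and Snx31 were highest in replicate 2. Krt4 and Muc1 were the 2 genes of the list with a negative log2 fold change, that of Muc1, a membrane mucin named after its values were seen, being -0.43 (edgeR adjusted p = 0.81). Krt4 stood at 37.6, 83.4 and 46.5 CPM in wild-type and 22.4, 13.1 and 14.2 CPM in knockout libraries (log2 fold change -1.75, SE 0.31, adjusted p = 0.0785, edgeR). Dropping wild-type replicate 3 left 2 periderm genes called, dropping knockout replicate 1 left 3 and dropping knockout replicate 3 left 4. Krt6a and Krt17 have close relatives, and the division of their reads is uncertain. Of the 18 pan-epithelial genes 0 were called with edgeR or limma-voom, 10 of them higher had an unadjusted p below 0.05, and DESeq2 called 8 and the likelihood ratio test 5.

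**Figure D5:**
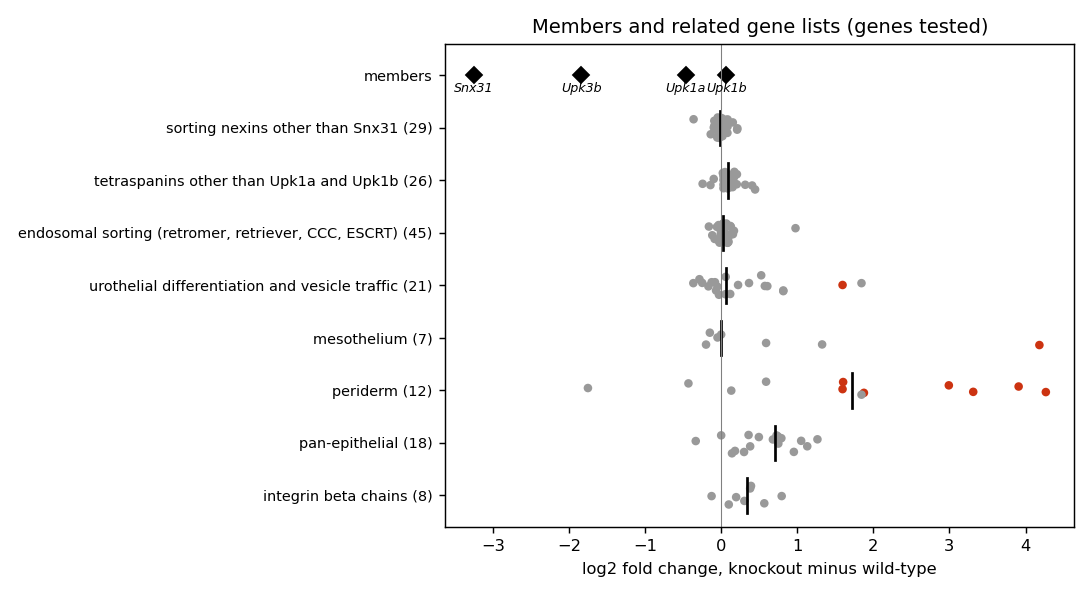
Log2 fold change, knockout minus wild-type (horizontal axis), of the 4 tested members (black diamonds) and of the genes of 8 lists (rows, number tested in brackets). Red points passed an FDR of 0.05 in edgeR, grey points did not, and vertical bars are list medians. Sorting nexins lie between -0.36 and 0.21, around a median of -0.02, and Snx31 lies at -3.25.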

How the data were processed

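Polyadenylated RNA was sequenced from 3 wild-type and 3 Grhl3 knockout handpads with a stranded Illumina kit, per the labels' protocols. FastQC, kallisto and the mm10 build are named, per the submitters' processing notes, with no kallisto version or transcript set given in the sources used here. The deposited tables give, per the file headers, a length, an effective length, an estimated count and a TPM, a length-corrected share, for 111462 transcripts. The authors' deposited comparison of the genotypes holds a p-value, an FDR, a likelihood ratio score and 2 log2 quantities, the fold change and mean CPM.

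Transcripts were matched to GENCODE M21 by unversioned identifier (110203 matched, and the 1259 others held 0.504% to 0.566% of counts). Estimated counts were summed per gene and rounded. TPM were summed per gene and used only for levels between genes. CPM use TMM library sizes. edgeR 4.0.16 (R 4.3.3) compared the genotypes by its quasi-likelihood test after filterByExpr (minimum count 10, minimum total 15), with Benjamini-Hochberg adjustment over 16938 genes. On simulated counts for these genes, 99.2% of 4-fold changes were recovered and 4.49% of calls were false. The simulated spread was the fitted trend alone, without the spread particular to each gene. Changes were planted only in genes above a minimum level. These shares therefore do not give the recovery in the real libraries. DESeq2 1.42.0, limma-voom 3.58.1, the likelihood ratio test, other scalings and filters, covariates and left-out libraries were alternatives.

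The members and gene lists were chosen with earlier results of these data known. The text names the members, the Grhl genes, called members of each list with up to 3 of the smallest p, and neighbours within 250 kb. It also names the 5 genes most like each tested member. Those were sought among genes whose mean log2 CPM was 0 or more and whose symbol was not a model name such as Gm or Rik. Genes outside these rules are marked.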

Additional observations from a re-analysis of the deposited data

How the results depend on the processing

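Over 18 alternatives the Snx31 log2 fold change ran from -3.77 to -2.61, and without 1 library from -3.49 to -2.71. It moved furthest from -3.25 under the Y-linked term (-2.61), once wild-type replicate 2 was dropped (-2.71) and under pan-epithelial scaling (-3.77). The range was -2.61 to -1.47 for Upk3b, -1.15 to -0.31 for Upk1a and -0.60 to 0.36 for Upk1b.

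Genes called numbered 73, and 530 with pan-epithelial scaling (86.6% of them lower, against 19.2%), 118 with no filter, 299 with DESeq2, 260 with the likelihood ratio test, 45 with limma-voom or effective length offsets, 203 with the transcript length term, and 10 to 206 without 1 library. DESeq2 put 29.1% and limma-voom 8.89% of calls lower. Members called numbered 1, and 2 with pan-epithelial scaling (Snx31 and Upk3b), 0 with limma-voom, and 0 to 2 without 1 library. Urothelial genes called numbered 1, and 0 with pan-epithelial scaling or effective length offsets, 3 with DESeq2 or the likelihood ratio test, 2 with the transcript length term, and 0 to 1 without 1 library. The mesothelial count was 0 with at least 1 CPM in 3 libraries or the Y-linked term, and 0 to 1 without 1 library. The pan-epithelial count was 3 with no filter, 8 with DESeq2, 5 with the likelihood ratio test, 4 with the Y-linked term, 6 with the transcript length term, and 0 to 6 without 1 library. The periderm count was 2 to 8 without 1 library. Integrin beta chains called numbered 1 with DESeq2 or the likelihood ratio test. Endosomal sorting genes called numbered 1 with the Y-linked or transcript length term. The causes were not tested.

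Pan-epithelial scaling turned the sign of Upk1b (-0.60) and of 12 other named genes, for a shift of all genes to -0.65: Grhl1 (-0.24), Grhl2 (-0.21), Snx19 (-0.47), Cd151 (-0.34), Tspan14 (-0.47), Tspan18 (-0.46), Chmp1a (-0.49), Chmp6 (-0.49), Myo5b (-0.041), Krt19 (-0.018), Itgb7 (-0.066) and Itgb3 (-0.25).

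Same-numbered libraries did not deviate together (correlations -0.248, -0.091 and -0.164), and no library correlated best with its own number. These values show no pairing by number. With so few libraries per group they cannot settle whether the numbers pair the samples. With the replicate block 47 genes and 0 urothelial genes were called (Krt7 at an edgeR adjusted p of 0.085), 1 member was called, and the Snx31 log2 fold change was -3.12. Depth limits Upk2, with at most 8 counts, and Upk3a, with 0.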
